A study of Mus musculus with 40 samples.

Results

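The addition of T cells to mammary carcinoma cells growing on fibronectin was described from 9 RNA sequencing libraries of a series of 40. The 9 are every library of a fibronectin-coated well: 5 of 4T1 cells alone (experiments 1 to 5) and 4 of 4T1 cells with T cells (experiments 1, 2, 4 and 5). They were chosen by their labels, not by a measured value. The experiment number joins them into 4 pairs of wells, and experiment 3 has 4T1 alone only.

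4T1 is a mammary carcinoma line from a BALB/c mouse, used here within a few passages of purchase, and the T cells came from spleens of C57Bl6 mice, a strain with other major histocompatibility genes. All 9 wells held tissue culture polystyrene coated with fibronectin at 250 µg/ml and were seeded with 10000 4T1 cells per cm2. After a night, 80000 T cells per cm2 were added to a well of each pair, and interleukin 2, a T cell growth factor, was given at 30 U/mL to both wells of the pair, so that the controls carry it too. Both were kept for a further 24 h. Cells floating in the medium were spun down and joined with the trypsinised cells, and carcinoma and T cell RNA were therefore sequenced together from each co-culture. In such a mixture, fewer cells of a type and less RNA per cell cannot be told apart, and a gene that rises may do so in either kind of cell. How the T cells were isolated, whether they had been activated, and how many spleens were used are not given in the sources used here.

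Fibronectin is a glycoprotein of the extracellular matrix that cells grip through integrins, receptors made of an alpha and a beta chain. The chains alpha 5 and beta 1 form its classical receptor in carcinoma cells, while T cells also bind it through alpha 4 paired with beta 1 or beta 7. T cells that recognise a target release interferon gamma, which acts through its receptor and Jak kinases to raise guanylate-binding proteins, immunity-related GTPases and the genes of antigen presentation on major histocompatibility complex (MHC) class I.

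Values are reads per M, a read count over the scaled size of its library in mega-reads. The 9 libraries held 31.57 to 47.73 M assigned reads. Where no read was seen, up to 3 could have been missed, a limit of 0.0638 to 0.0981 per M over the 9 libraries that covers counting error only. The label descriptions carry a library tag of unstated meaning (none, R2 or R3) that is the same in both arms of experiment 1 only. In experiment 4 the library of 4T1 alone carries R3 and the co-culture none. The part of the tag in the results was not tested. The labelled cell types were present: Krt8, a simple epithelial keratin, was at 618 to 842 per M in 4T1 alone, and Cd3e, a chain of the T cell receptor complex, was at 0 to 0.0465 per M there and at 1.15 to 32.7 in co-culture.

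The question the comparison addresses is how gene expression in a culture on fibronectin differs once T cells are present. In the test over all genes (limma, 10 group means of all 40 libraries), 0 of 14701 genes passed at an adjusted p under 0.05 (0.0% called). The lowest adjusted p was 0.537, and 353 genes had an unadjusted p under 0.05, where a share of 0.05 would be 735. With the experiment as a block in the same model, 0 passed and 912 had an unadjusted p under 0.05. The limma test thus called no gene. The calls below come from a second test, taken up because the first gave none, so they are exploratory. It was edgeR's quasi-likelihood test on the recovered reads of the 9 libraries, with the experiment as a block. This test compares each co-culture with its own experiment and is named the paired count test below. It called 288 genes higher (1.96% of those tested) and 2 lower (0.0136%). The same count test without a block called 255 higher and 0 lower, while limma with the block called 0.

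The count of higher genes rested on experiment 1 more than on the others. It was 27 without experiment 1, 314 without experiment 2, 176 without experiment 4 and 286 without experiment 5, and no gene was called lower in any of these 4 fits. Of the 288 higher genes, 174 were also called without experiment 4 and 27 without experiment 1. In the limma model, which called no gene with all libraries, 176 genes passed once experiment 4 was left out.

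The genes called higher were ones that the carcinoma cells scarcely expressed. Of the 288, 285 averaged under 1 per M in 4T1 alone, 35 had no read in any of the 5 libraries alone, 2 averaged 1 to 10 per M and 1 averaged 10 or more. That last gene was Lgr6, against 9569 tested genes in the same range of level. The 288 include 54 members of the gene lists used here, of which 45 stand in lists of T cell or leukocyte genes. The lists were chosen with earlier results of these data known, and a gene near 0 in 4T1 alone passed the filter on low values only through co-cultures, so these counts describe the genes and support nothing further.

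**Figure D1:**
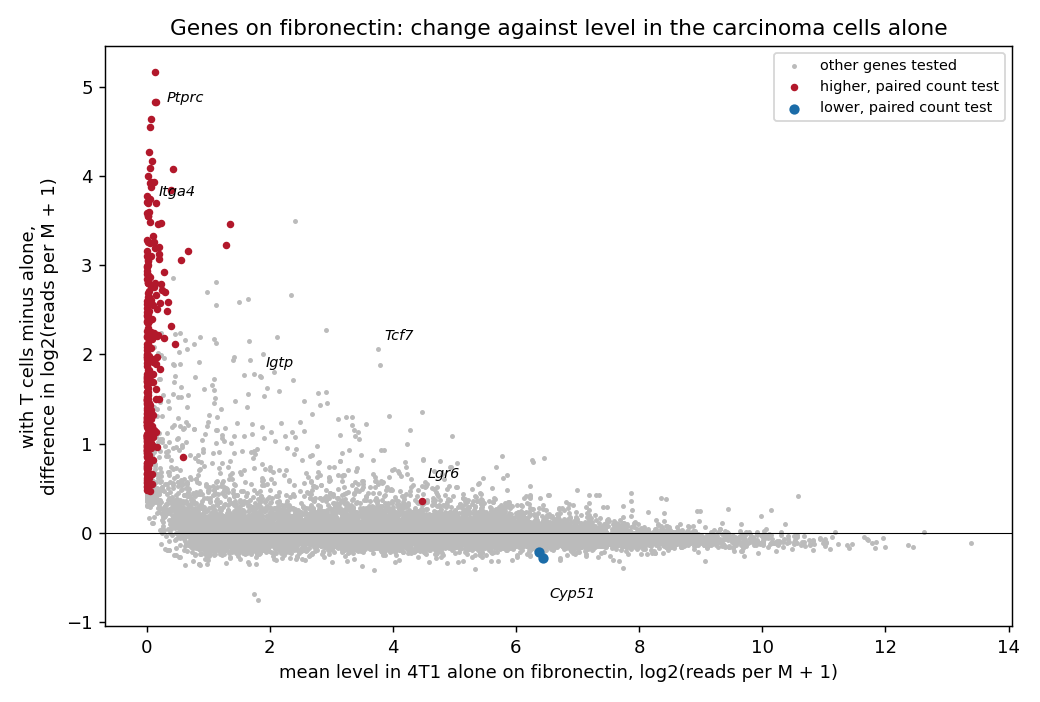
Change on adding T cells on fibronectin against the level in 4T1 alone, for 14701 genes. The horizontal axis is the mean log2(reads per M + 1) of 5 libraries alone, and the vertical axis is the limma difference between co-culture and 4T1 alone on that scale. Red points are the 288 genes the paired count test called higher, of which 285 lie below 1 per M, and blue points are the 2 called lower.

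Experiments differed in how much T cell RNA their co-culture held. The T cell identity list, 25 genes of the T cell receptor complex, its signalling and its co-receptors, summed to 4.5 to 7.58 per M in the libraries of 4T1 alone. In co-culture the sum was 309 per M in experiment 1, 45.5 in experiment 2, 993 in experiment 4 and 44.0 in experiment 5. Experiment 4 was thus far above experiment 1, and both were above experiments 2 and 5, although the labels give the same number of T cells for all.

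All 25 identity genes passed the filter, and all 25 were higher in co-culture in 4 of 4 pairs, where 1636 of all tested genes were (11.1%). In the same 25 genes the lowest co-culture lay above the highest library alone, as in 572 genes of all tested (3.89%). The paired count test called 20 of the 25 higher and none lower, beside 1.96% and 0.0136% of all genes tested. Their median log2 difference was 2.6, beside −0.01 for all genes tested. The 5 members not called were Cd5, Lck, Trac, Skap1 and Txk. Lck, the kinase that starts T cell receptor signalling, had 1.57 to 2.53 per M in 4T1 alone and 28.6, 5.84, 77.6 and 4.17 per M in the co-cultures of experiments 1, 2, 4 and 5, with a paired count adjusted p of 0.18.

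Cd4, the co-receptor of helper T cells, stood at 0, 0.0465, 0, 0 and 0.0533 per M in 4T1 alone of experiments 1 to 5, and at 12.9, 1.5, 48.0 and 1.94 per M in the co-cultures of experiments 1, 2, 4 and 5. Its log2 difference was 3.04 ± 1.07 (SE), with a paired count adjusted p of 0.0018. Cd8a, a chain of the co-receptor of cytotoxic T cells, was at 0 in 4 of the 5 libraries alone and at 0.0233 per M in experiment 2, and rose to 12.3, 1.93, 39.0 and 1.05 per M. Groups did not overlap for either gene, and co-cultures of experiments 2 and 5 were the low ones for both. The Cd8a difference was 2.90 ± 1.06 (paired count adjusted p = 0.00048). The ratio of Cd4 to Cd8a reads was 1.04, 0.779, 1.23 and 1.85 in the co-cultures of experiments 1, 2, 4 and 5, from 39 to 1764 reads of either gene, so transcripts of both T cell classes were present in each co-culture.

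**Figure D2:**
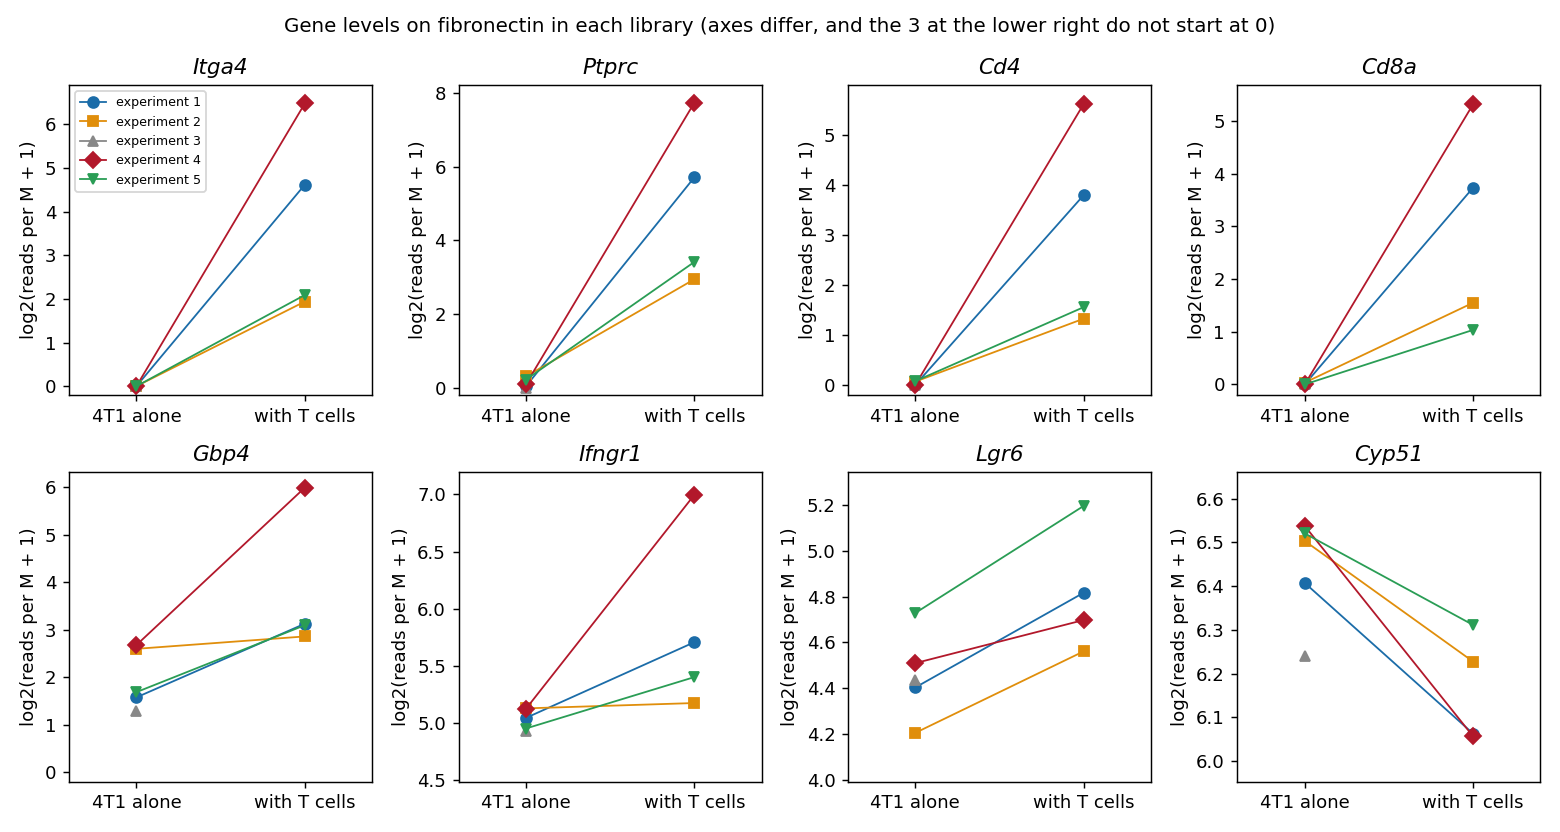
Level of 8 genes in each fibronectin library, as log2(reads per M + 1), in 4T1 alone and with T cells. Lines join the wells of an experiment, and the grey triangle is experiment 3, which has no co-culture. Itga4, Ptprc, Cd4 and Cd8a are near 0 alone and highest in experiment 4 with T cells, while Cyp51 is lower and Lgr6 higher in each of the 4 pairs.

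The 10 genes with the largest difference in the paired count test were near 0 in 4T1 alone. Itga4, the alpha 4 integrin chain, is described with the integrins below. Cd52, a small surface glycoprotein of lymphocytes, had 0 reads in each library alone and 8.51, 1.13, 24.7 and 1.34 per M in the co-cultures of experiments 1, 2, 4 and 5, which is at least 16.2-fold to 263-fold higher per pair when 3 reads in the matching library alone are taken as the floor. Vav1, a guanine nucleotide exchange factor of blood cells that acts downstream of the T cell receptor, was likewise at 0 alone and at 8.19, 1.23, 23.8 and 1.10 per M. Cd6, a T cell surface receptor, was at 0 alone and at 8.61, 1.20, 22.1 and 0.807 per M. The paired count adjusted p was 0.0032, 0.0034 and 0.0036 for Cd52, Vav1 and Cd6. With 0 reads alone, these genes passed the filter only through co-cultures, so their p-values are a description and no support. The same holds for every gene near 0 in 4T1 alone.

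Ikzf1, the lymphoid transcription factor Ikaros, had 0 reads in 4 libraries alone and 0.0267 per M in experiment 5, against 20.4, 2.41, 70.8 and 3.04 per M in co-culture (paired count adjusted p = 0.00034). Ms4a6b, a membrane protein of lymphocytes, reached 18.7, 3.06, 78.5 and 3.66 per M from at most 0.0267 alone. Traf3ip3, an adaptor protein of lymphocytes, reached 15.0, 1.81, 44.9 and 2.15 per M from at most 0.0233. The remaining genes named by the rule were Jakmip1, A430078G23Rik and Gm8369, with 3.85 to 7.0 per M in experiment 1 and 18.1 to 21.2 per M in experiment 4. Each gene had its highest value in experiment 4 and its next highest in experiment 1. Cd52, Ms4a6b, Ikzf1 and Traf3ip3 overlap annotated genes on the other strand, which these libraries cannot separate.

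Ptprc encodes CD45, the phosphatase carried by all nucleated blood cells. It was at 0.0227, 0.233, 0, 0.0627 and 0.160 per M in 4T1 alone of experiments 1 to 5. In co-culture it stood at 51.5, 6.69, 213 and 9.66 per M, a log2 difference of 4.83 ± 1.21 (paired count adjusted p = 0.0017). The groups were far apart, and the highest library alone for Ptprc, as for Gimap3, was that of experiment 2.

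Genes of resting T cells and of homing to lymph nodes were the next group. Of 12 listed, all 12 were tested. The test called 5 higher, where 1.96% of all genes tested were, and 11 were higher in 4 of 4 pairs (11.1% of all). The median log2 difference was 2.41. Il7r, a receptor of the survival cytokine interleukin 7, went from at most 0.163 to 46.7, 3.61, 204 and 6.83 per M (paired count adjusted p = 0.0015). Ccr7 and S1pr1, receptors that guide T cells into and out of lymph nodes, and Cxcr4 were also called. Tcf7, a transcription factor of naive and memory T cells, was read in 4T1 alone at 10.2 to 14.4 per M and was not called, at 87.3, 22.4, 236 and 19.4 per M (paired count adjusted p = 0.25).

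Activation and effector genes formed further lists. In the activation list, 6 of 16 were called higher (1.96% of all genes tested were), among them Il2ra and Il2rb, chains of the interleukin 2 receptor. In 4 of 4 pairs 14 of 16 were higher, where 11.1% of all genes tested were. The median difference was 0.77 (0.36 without experiment 4 and 0.46 after quantile normalisation). Il2ra went from 0 in 4 libraries alone and 0.0227 per M in experiment 1 to 2.32, 0.376, 10.3 and 1.18 per M (paired count adjusted p = 0.00093). Cd69, an early activation marker, reached 0.425, 0.301, 1.77 and 0.108 per M (0.022).

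Of the cytotoxic effector list, 18 genes, 12 were tested and 3 were called higher, where 1.96% of all genes tested were. The 3 were Srgn, the proteoglycan core of lytic granules, and Klrd1 and Klrk1, lectin-like receptors of cytotoxic cells. Srgn was at 6.13, 0.802, 25.2 and 1.16 per M in co-culture (paired count adjusted p = 0.0019). Gzmb, the granule protease granzyme B, was at 0 in each library alone and at 0.0638, 0, 1.44 and 0.0538 per M in co-culture, and was not called (0.29). Ifng, which encodes interferon gamma, did not pass the filter on low values. It was at 0.0682, 0, 0, 0 and 0 per M alone and at 0.0213, 0, 0.190 and 0 per M in co-culture, so it exceeded the limit that a count of 0 allows in experiment 4 only, and no rise was detectable at this depth in the others.

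Ltb, which encodes lymphotoxin beta, was the single T cell cytokine gene called higher of 5 tested, where 1.96% of all genes tested were. Ltb was at 24.8, 3.99, 55.9 and 2.47 per M against 0.0682 to 0.256 alone (paired count adjusted p = 0.0051). Foxp3, the transcription factor of regulatory T cells, rose from at most 0.0654 per M to 2.15, 0.326, 6.29 and 0.484 per M (0.0023). Pdcd1, the checkpoint receptor PD-1, had no read alone and 0.830, 0.0752, 3.92 and 0.377 per M in co-culture (0.049). Gimap genes, a family of GTPases of the immune system that lie in a cluster and resemble each other, were called higher in 7 of 8 members (1.96% of all genes tested were). Gimap3 stood at 0 to 0.209 per M alone and at 41.7, 5.77, 179 and 8.12 per M in co-culture (0.0014), though reads may be shared between family members and its own share is uncertain.

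Members with low values were near the limit of detection in experiments 2 and 5. Cd40lg, the helper ligand CD40L, was at 0 in each library alone and at 0.808, 0.0501, 4.60 and 0.188 per M in co-culture (paired count adjusted p = 0.048), so that its value in experiment 2 lies under the limit that a count of 0 allows there. Prf1, the pore former perforin, was at 0 alone and at 0.574, 0.0501, 2.42 and 0.0807 per M in co-culture and was not called (0.11). Batf, a transcription factor of activated T cells, was likewise not called, at 0.404, 0.15, 0.953 and 0.0807 per M (0.22). Icos, a co-stimulatory receptor of activated T cells, was called, at 2.96, 0.326, 10.1 and 0.619 per M against at most 0.0698 alone (0.016).

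**Figure D3:**
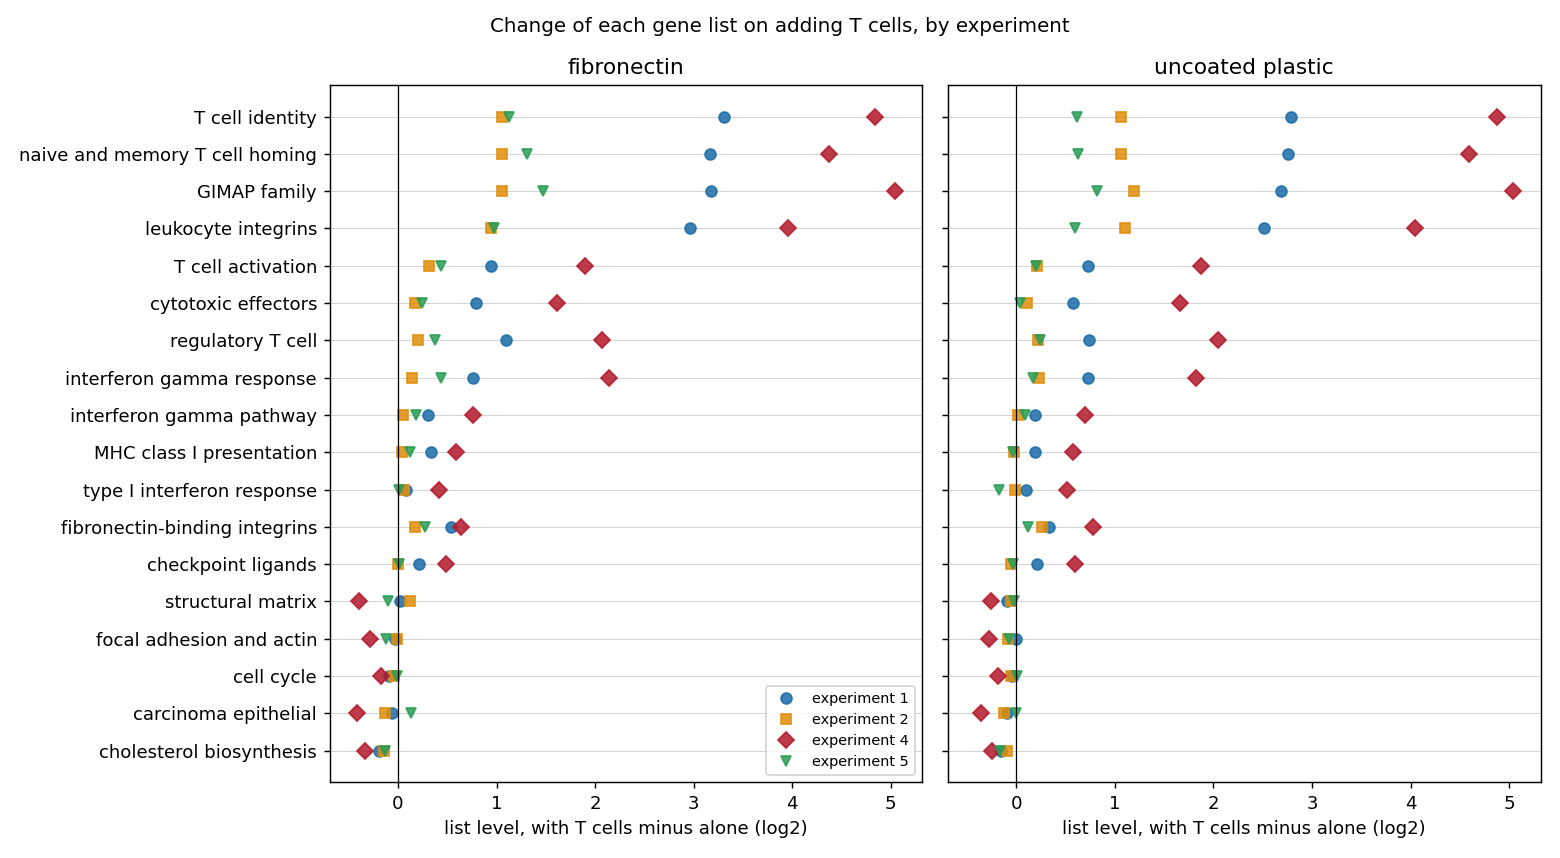
Difference of the mean log2(reads per M + 1) of a gene list between co-culture and 4T1 alone of the same experiment, on fibronectin (left) and on uncoated plastic (right). Each symbol is an experiment. Experiment 4 is the highest of the 4 for T cell identity on both substrates, at 4.84 and 4.88, and the cholesterol list is below 0 in 4 of 4 experiments on both.

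Among integrins, 3 of the leukocyte chains rose, and none of those that 4T1 cells express at 10 per M or more was called. Itga4 (chromosome 2, 79255426 to 79333123, plus strand, GRCm38) had 0 reads in all 5 libraries alone and 23.5, 2.83, 88.0 and 3.25 per M in the co-cultures of experiments 1, 2, 4 and 5. Against a floor of 3 reads in the matching library alone it was at least 345-fold, 40.6-fold, 936-fold and 40.7-fold higher. The groups did not overlap, the log2 difference was 3.78 ± 1.17, and the paired count adjusted p was 0.0013. The gene overlaps Cerkl on the other strand, and the library kit does not mark strand.

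Itgb7, the beta 7 chain that pairs with alpha 4, went from 0.327 to 0.613 per M alone to 21.2, 3.41, 57.5 and 2.96 per M in co-culture (paired count adjusted p = 0.032). Itgal, the alpha chain of LFA-1, by which T cells hold on to target cells, reached 15.3, 1.75, 46.6 and 2.10 per M (0.0097). Itgae, which binds E-cadherin of epithelia, was at 0.407 to 0.705 per M alone, at 4.21 in experiment 1, 0.752 in experiment 2 and 5.44 in experiment 4, and was not called. Its value in the co-culture of experiment 5 is not reported here. Of 7 leukocyte integrin genes 5 were tested and 3 called higher, where 1.96% of all genes tested were.

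The fibronectin-binding integrins that 4T1 cells express gave values close to each other in both arms. Of 10 listed, 9 were tested, and Itga4 was the single member called higher, where 1.96% of all genes tested were. Itga5, the alpha 5 chain, was at 45.7, 47.0, 50.6, 49.2 and 47.0 per M alone and at 45.9, 49.2, 40.2 and 42.7 per M in co-culture, a difference of −0.11 ± 0.08. Itgb1, its partner, was at 1204 to 1441 per M alone and at 1236, 1223, 1090 and 1249 per M in co-culture (−0.11 ± 0.10, or 0.02 when libraries are scaled on carcinoma epithelial genes). Itgav was at 177 to 192 per M alone and 165 to 198 in co-culture. These ranges overlap, and none of the 3 passed either test.

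The gene of fibronectin itself, Fn1, is expressed by 4T1 cells. It was at 1666, 2417, 2167, 2097 and 1835 per M alone and at 1971, 2780, 1408 and 1573 per M in co-culture. It was higher with T cells in experiments 1 and 2, by 0.24 and 0.20, and lower in experiments 4 and 5, by −0.57 and −0.22, with a pooled difference of −0.11 ± 0.25 that was 0.04 without experiment 4 and 0.01 under scaling on carcinoma epithelial genes.

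Markers of blood cells other than T cells were higher in co-culture for some types. Of 14 B cell markers 4 were tested and 1 was called higher, where 1.96% of all genes tested were. It was Ighm, the constant region of the IgM heavy chain, at 14.3, 0.953, 43.9 and 3.09 per M in co-culture and at most 0.0233 alone (paired count adjusted p = 0.00054). The B cell list summed to 1.44 to 2.37 per M alone and to 16.6, 3.26, 52.9 and 4.5 per M in co-culture. The B cell genes Cd79a and Ms4a1 were at most 0.898 per M in any co-culture, and Ms4a1 was at 0 in the co-cultures of experiments 1, 2 and 5. Of 12 macrophage and monocyte markers 6 were tested and 3 called higher (Lyz2, Ly6c2 and Ccr2), where 1.96% of all genes tested were. The log2 differences of the 6 ran from −0.08 to 1.18. The list summed to 10.1 to 14.2 per M alone and 13.7, 13.7, 23.2 and 11.5 per M in co-culture. It thus left the range of 4T1 alone in experiment 4 only. Which cells these transcripts came from was not tested.

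Neutrophil markers summed to 0.0909 to 0.279 per M alone and to 3.53, 0.175, 2.72 and 0.834 per M in co-culture, with 1 of 11 tested and none called. Red cell and platelet markers summed to 0.837 to 1.28 per M alone and to 2.08, 1.5, 14.6 and 1.02 per M in co-culture. The haemoglobin genes Hba-a1 and Hbb-bs were at 2.83 and 3.37 per M in the co-culture of experiment 4 and at most 0.0638 per M in the other 8 libraries. The part of these cells in the gene lists above was not tested.

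**Figure D4:**
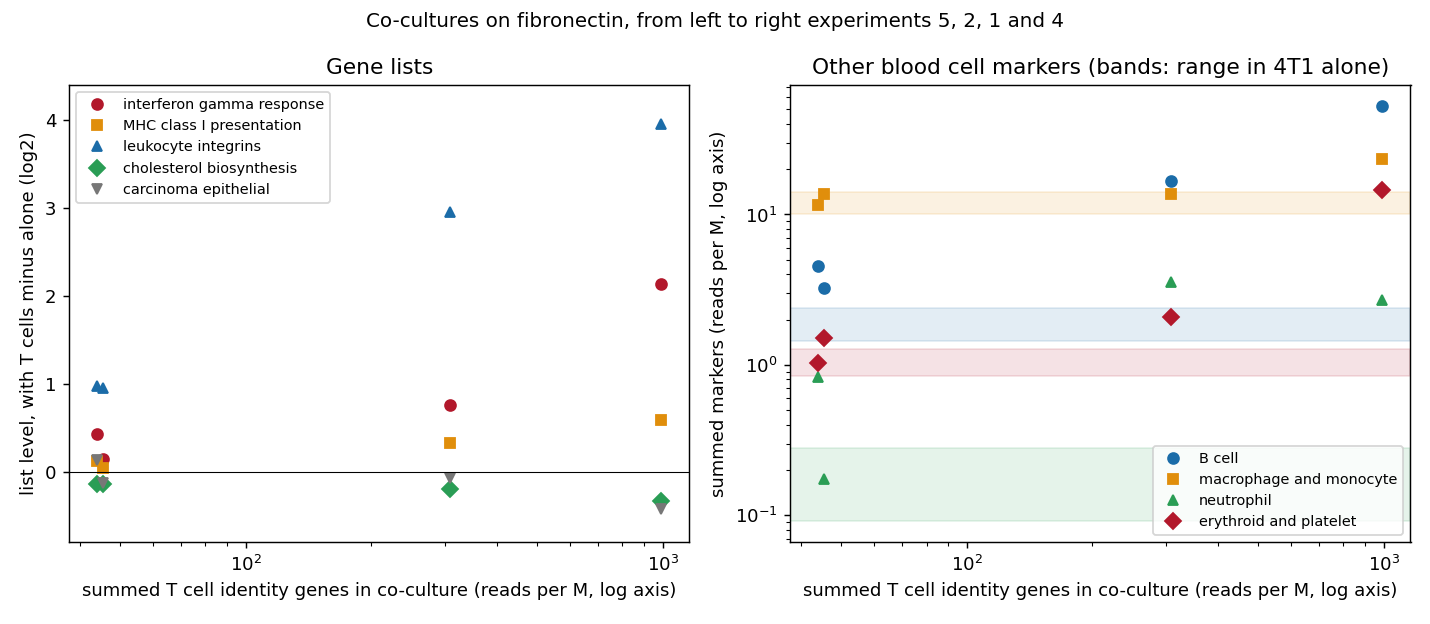
Values of the 4 fibronectin co-cultures against the summed T cell identity genes of the same library (reads per M, log axis). Left, the difference of 5 list levels between co-culture and 4T1 alone (log2); right, the summed markers of 4 other blood cell types (reads per M, log axis), with bands for their range in 4T1 alone. The interferon gamma response differs by 0.15 to 0.77 in experiments 1, 2 and 5 and by 2.14 in experiment 4, where the red cell markers sum to 14.6 per M.

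No interferon gamma response gene passed a test, although many were above their own control in each pair. Of 25 listed, 22 were tested, 0 were called by either test, 14 were higher in 4 of 4 pairs (11.1% of all genes tested were) and 6 had groups that did not overlap, with co-culture higher (3.89% of all). The median log2 difference was 0.93 with all experiments and 0.51 without experiment 4. The list level differed by 0.77, 0.15, 2.14 and 0.44 in experiments 1, 2, 4 and 5.

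Gbp4, a guanylate-binding protein, was at 1.98, 5.05, 1.44, 5.39 and 2.21 per M alone and at 7.72, 6.24, 62.5 and 7.53 per M in co-culture. The groups did not overlap, and the co-culture of experiment 4 stood far above the other 3, which lay close together. The log2 difference was 1.80 ± 0.84 and the paired count adjusted p was 0.19. Igtp, an immunity-related GTPase, was at 1.89 to 3.98 per M alone and at 7.64, 4.06, 69.8 and 5.35 per M in co-culture (1.76 ± 0.95, 0.22). In the annotation Gbp4 overlaps Gbp8 and Gbp9, and Igtp overlaps Irgm2, so reads may be split between them. Tgtp2, which has a near-identical copy in Tgtp1 so that its own share is uncertain, was at 3.86 to 11.4 per M alone and 13.7, 6.79, 136 and 12.3 per M in co-culture (0.33).

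Cxcl9, a chemokine that draws activated T cells, was at 0, 0.256, 0, 0.0940 and 0.0533 per M alone and at 0.723, 0.451, 4.11 and 0.350 per M in co-culture, without overlap (0.92 ± 0.34, paired count adjusted p = 0.19). Cxcl10, its close relative, did overlap, at 1.5 to 4.81 per M alone and 1.57, 4.79, 5.63 and 2.26 per M in co-culture (0.16 ± 0.27, 0.88). Gbp2 was at 10.2 to 20.3 per M alone and at 11.2, 15.1, 43.8 and 20.1 per M in co-culture (0.57 ± 0.51, 0.26). Members of the list thus differed in whether experiments 1, 2 and 5 left the range of 4T1 alone, and all of those named here were highest in experiment 4.

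The window around the transcription start of Igtp is shown because it carries both elements by which interferon acts on such genes: a GAS, the interferon gamma activated site, searched as TTCNNNGAA, and the core of an ISRE, the site of interferon regulatory factors, searched as GAAANNGAA, each on both strands. Capitals mark the matches, which do not overlap each other. The sequence spans chr11:58199306-58199605, plus strand, 250 bases before to 50 after the start, from RefSeq (GRCm38.p6).

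Igtp: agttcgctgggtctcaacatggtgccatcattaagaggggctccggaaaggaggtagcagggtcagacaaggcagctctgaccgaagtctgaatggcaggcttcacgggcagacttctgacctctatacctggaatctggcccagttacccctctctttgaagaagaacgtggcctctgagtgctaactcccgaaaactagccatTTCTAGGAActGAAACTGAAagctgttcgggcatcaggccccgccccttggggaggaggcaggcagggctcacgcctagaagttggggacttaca

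GAS matches were present in the windows of 8 of the 15 tested interferon gamma response genes that have a RefSeq window, and ISRE core matches in 13 of 15. Counted by window, the shares were 44.4% and 72.2%, against 8.3% and 8.56% of all 32851 windows in the table. A match describes letters in a window and is not a measured site.

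In the list of the interferon gamma receptor and its signalling chain the median difference was 0.28 (0.18 without experiment 4). Ifngr1, the ligand-binding receptor chain, was at 32.1, 34.0, 29.5, 33.9 and 30.0 per M alone and at 51.3, 35.2, 127 and 41.3 per M in co-culture, without overlap (0.78 ± 0.48, paired count adjusted p = 0.37). Ifngr2, the other chain, was at 40.7 to 50.9 per M alone and 41.4 to 52.7 in co-culture. Jak1, the kinase bound to the receptor, was at 155 to 168 per M alone and at 220, 178, 341 and 171 per M in co-culture, without overlap (0.43 ± 0.30, 0.37). Socs1, the feedback inhibitor, was at 2.33 to 4.98 per M alone and at 8.25, 2.91, 10.3 and 5.30 per M in co-culture, the lowest p of the list (0.052). These genes are also active in T cells. Irf1, a transcription factor known to be induced by interferon gamma, was at 48.8 to 98.9 per M alone and at 53.6, 51.4, 125 and 80.0 per M in co-culture, where the difference was 0.09 with experiment 4 and −0.04 without it. Of 14 pathway genes, 0 were called and 7 were higher in 4 of 4 pairs, beside 11.1% of all genes tested.

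Genes of MHC class I presentation were called in 0 of 21 cases, and 7 were higher in 4 of 4 pairs, beside 11.1% of all genes tested. The median difference was 0.24 (0.15 without experiment 4 and 0.37 under scaling on carcinoma epithelial genes). Tap1, a chain of the peptide transporter, was at 5.39 to 9.75 per M alone and at 19.7, 9.33, 61.2 and 12.6 per M in co-culture (1.28 ± 0.67, paired count adjusted p = 0.24). It overlaps Psmb9 on the other strand. H2-K1, a classical class I heavy chain, was at 333, 389, 295, 406 and 303 per M alone and at 447, 389, 672 and 342 per M in co-culture (0.38 ± 0.30, 0.34). The co-cultures of experiments 2 and 5 lay within the range of the libraries alone. Class I heavy chains are close in sequence and are made by all nucleated cells, so the share of H2-K1 itself is uncertain. The 4T1 cells and the T cells also come from strains that differ in these genes. How well the reads of each strain aligned to the build was not tested.

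Cd274, the checkpoint ligand PD-L1, was at 1.82, 2.37, 1.93, 2.57 and 2.59 per M alone and at 2.45, 2.51, 11.8 and 2.23 per M in co-culture. It stood above the range of the libraries alone in experiment 4 only, and the difference was 0.54 ± 0.55 (paired count adjusted p = 0.62). Of 8 checkpoint ligands tested 0 were called. Of 22 type I interferon genes tested 1 was called higher, where 1.96% of all genes tested were. It was Ifit3, an antiviral protein with a close copy in Ifit3b, at 0.273 to 0.972 per M alone and 0.872, 1.48, 5.39 and 0.780 per M in co-culture (0.03). In the same list 5 genes were higher and 3 lower in 4 of 4 pairs, beside 11.1% and 10.3% of all genes tested.

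Among genes that averaged 10 per M or more in 4T1 alone, 3 were called. Lgr6 (chromosome 1, 134983301 to 135105276, minus strand), a receptor of R-spondins known from epithelial stem cells, was at 20.2, 17.4, 20.6, 21.8 and 25.5 per M alone and at 27.2, 22.6, 25.0 and 35.7 per M in co-culture. It was higher in 4 of 4 pairs, by 0.41, 0.36, 0.19 and 0.47, but the groups overlap, and the paired count adjusted p was 0.044. The adjusted p was 0.336, 0.158 and 0.161 without experiment 1, 2 or 5, 0.0164 without experiment 4, 0.363 without the block and 0.0677 under scaling on carcinoma epithelial genes.

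The 2 genes called lower, Cyp51 and Hmgcs1, both encode enzymes of cholesterol synthesis. Hmgcs1 makes the precursor of mevalonate, and Cyp51 removes a methyl group from lanosterol. Cyp51 (chromosome 5, 4081145 to 4104746, minus strand, overlapping Akap9 on the other strand) was at 83.9, 89.7, 74.6, 91.9 and 90.8 per M alone and fell to 65.9, 73.9, 65.6 and 78.4 per M in co-culture. Hmgcs1 (chromosome 13, 119690379 to 119708260, plus strand) was at 75.5, 70.8, 69.1, 88.7 and 105 per M alone and at 59.2, 58.9, 74.1 and 90.8 per M in co-culture. For both genes the groups overlap across experiments, and every co-culture is below the library alone of its own experiment.

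The log2 differences in the paired count test were −0.32 ± 0.06 for Cyp51 and −0.26 ± 0.05 for Hmgcs1, each with an adjusted p of 0.044. These ± values were worked back from the test statistic and are not the limma SE given for other genes. In limma the differences were −0.28 ± 0.13 and −0.21 ± 0.16 (SE). Neither call held when any experiment was left out, where the adjusted p was 0.083 to 0.294 for Cyp51 and 0.0917 to 0.322 for Hmgcs1. Without the block the adjusted p were 0.224 and 0.972, and with a stricter filter 0.0565 and 0.059. Both calls held with another library scaling, RLE (0.0432 and 0.0414), and with no filter (0.0455 and 0.0426). With all 40 libraries and the block the values were 0.0214 and 0.112. When libraries were scaled on carcinoma epithelial genes the differences were −0.21 and −0.15, with adjusted p of 0.78 and 0.921, while the median of all genes moved to 0.106.

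Their promoter windows are shown because the pathway is known to be driven by SREBP2, which binds sterol regulatory elements with the help of NF-Y at CCAAT boxes. The sterol regulatory element was searched as TCACNCCAC and the CCAAT box as CCAAT, on both strands. Capitals mark the matches, and the windows span chr13:119690101-119690400, plus strand, for Hmgcs1 and chr5:4104648-4104947, minus strand, for Cyp51 (RefSeq, GRCm38.p6).

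Hmgcs1: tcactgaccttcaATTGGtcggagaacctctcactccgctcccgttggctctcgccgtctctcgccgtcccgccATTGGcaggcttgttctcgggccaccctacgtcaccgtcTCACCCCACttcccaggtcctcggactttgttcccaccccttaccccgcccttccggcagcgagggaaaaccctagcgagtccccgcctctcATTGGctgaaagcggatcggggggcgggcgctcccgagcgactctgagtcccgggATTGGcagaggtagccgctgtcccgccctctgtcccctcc

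Cyp51: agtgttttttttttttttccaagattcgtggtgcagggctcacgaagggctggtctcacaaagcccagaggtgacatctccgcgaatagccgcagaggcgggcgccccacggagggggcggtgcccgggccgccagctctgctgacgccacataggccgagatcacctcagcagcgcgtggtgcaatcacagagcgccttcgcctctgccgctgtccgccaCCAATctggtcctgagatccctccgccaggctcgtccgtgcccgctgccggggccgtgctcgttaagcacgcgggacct

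Hmgcs1 holds 1 match to the sterol element and 4 CCAAT boxes, and Cyp51 holds 1 CCAAT box and no match to the sterol letters searched. Other forms of the sterol element were not searched, so a window without a match may still hold the element. These letters of the sterol element occur in 1 of the 16 list members with a RefSeq window, Hmgcs1, and CCAAT boxes in 16 of the 16. Counted by window, the shares were 5.26% and 84.2% of 19, against 1.24% and 37.4% of all windows.

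Most of the rest of the cholesterol list lay on the same side. Of 22 genes tested, 17 were lower in 4 of 4 pairs, where 1517 of all tested genes were (10.3%), and none was higher in all 4. The median log2 difference was −0.18, and −0.06 under scaling on carcinoma epithelial genes. Sqle, squalene epoxidase, was at 121, 136, 119, 135 and 133 per M alone and at 110, 113, 103 and 117 per M in co-culture (paired count adjusted p = 0.12). In Cyp51, Hmgcs1 and Sqle the co-culture was below its own control in each experiment. Sqle and Mvk were the 2 members whose groups did not overlap, of 89 such genes among all tested (0.605%). The list level differed by −0.19, −0.14, −0.33 and −0.13 in experiments 1, 2, 4 and 5, and the carcinoma epithelial markers by −0.06, −0.13, −0.42 and 0.14.

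**Figure D5:**
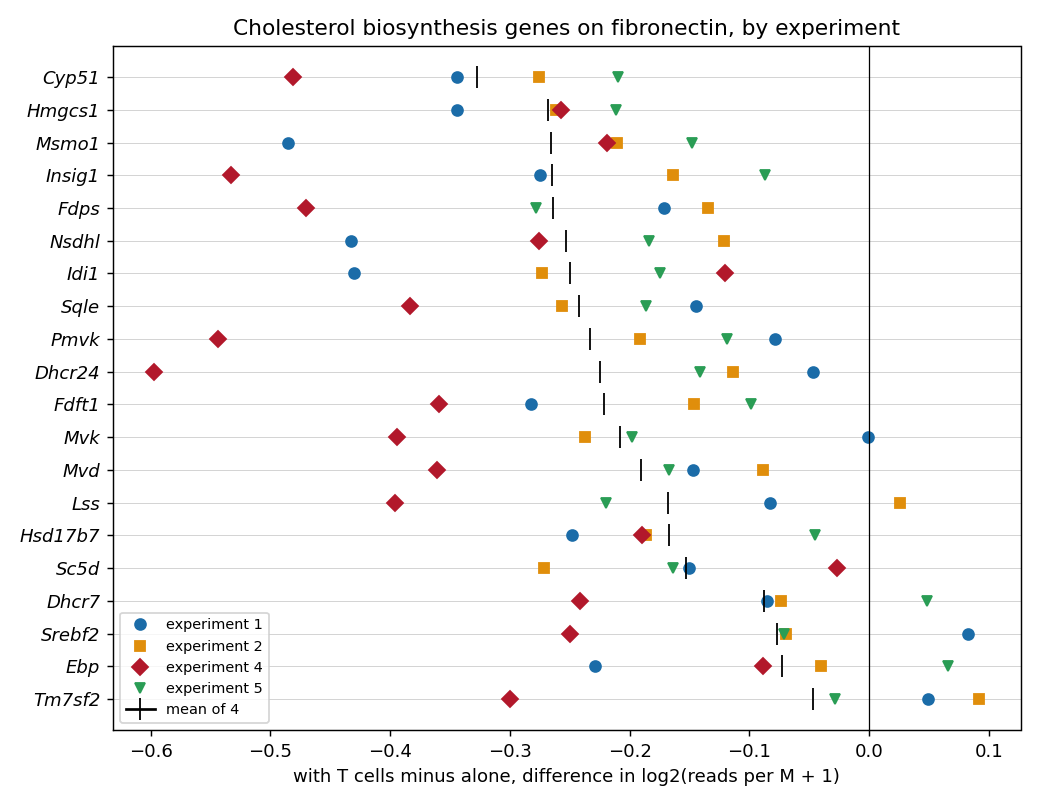
Difference in log2(reads per M + 1) between co-culture and 4T1 alone of the same experiment, for 20 of the 22 cholesterol synthesis genes on fibronectin. Symbols are experiments and the bar is their mean. In 15 of the genes all 4 symbols lie below 0, that of Mvk in experiment 1 only just, and Cyp51 and Hmgcs1, at the top, are the 2 that passed the paired count test.

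Other lists of carcinoma genes had no member called. Of 22 epithelial genes 0 were called, and Krt14 and Krt17 were the 2 lower in 4 of 4 pairs (10.3% of all genes tested were). Krt14, a basal keratin, was at 212, 280, 209, 148 and 94.7 per M alone and at 179, 249, 103 and 93.0 per M in co-culture, where the spread between experiments exceeds the difference of −0.30 ± 0.44. The structural matrix, matrix remodelling, focal adhesion and cell cycle lists had 0 called of 22, 21, 25 and 26 tested, with median differences of −0.11, −0.08, −0.11 and −0.08, each of which was 0.02 to 0.04 under scaling on carcinoma epithelial genes, where the median of all genes was 0.10. Without experiment 4 the 4 medians were −0.01, 0.02, −0.07 and −0.05, so that of matrix remodelling changed sign. In the focal adhesion and actin list 9 of 25 were lower in 4 of 4 pairs, where 10.3% of all genes tested were. Among the 9 was Ankrd1, a target of YAP, at 286 to 337 per M alone and 245, 302, 238 and 263 per M in co-culture (paired count adjusted p = 0.073).

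Myc, a transcription factor of growth, was at 283, 256, 330, 275 and 254 per M alone and at 274, 238, 226 and 214 per M in co-culture. It was lower in 4 of 4 pairs, by −0.05, −0.11, −0.28 and −0.24, and not called (−0.23 ± 0.09, paired count adjusted p = 0.34). Of the Max dimerisation proteins, which oppose Myc, Mxd4 was at 6.70 to 9.04 per M alone and at 10.7, 10.4, 20.6 and 10.4 per M in co-culture (0.65 ± 0.35, 0.15), and Mxd1 was at 1.57 to 2.41 per M alone and at 2.77, 2.63, 6.23 and 3.17 per M (0.57 ± 0.34, 0.22). Both had groups that did not overlap, and neither was called. The immediate early genes showed that experiments can differ in both arms together: Fosb was at 62.7 per M alone and 70.6 with T cells in experiment 2, and at 4.57 to 9.41 per M in the other 7 libraries, so that the difference within experiment 2 was 0.17.

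Genes of cell death, stress and inflammation gave no call either. Of 22 death receptor and caspase genes 4 were higher and 2 lower in 4 of 4 pairs, beside 11.1% and 10.3% of all genes tested. The median difference of the 22 was 0.04 (0.02 without experiment 4). Fas, the death receptor that T cells engage, was at 4.96 to 9.07 per M alone and 4.13 to 10.3 in co-culture. Of 12 heat shock genes 6 were lower in 4 of 4 pairs, where 10.3% of all genes tested were. The median difference of the 12 was −0.11, and 0.01 under scaling on carcinoma epithelial genes. Hspd1, a mitochondrial chaperone, was at 1173 to 1300 per M alone and at 1060, 1084, 1133 and 1157 per M in co-culture, without overlap (−0.14 ± 0.09, paired count adjusted p = 0.38). Cxcl1, a neutrophil chemokine, was at 48.0 and 47.3 per M in the 2 arms of experiment 2 and at 6.89 to 15.3 per M in the other 7 libraries.

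Whether the response depends on fibronectin was tested against uncoated plastic, which has the same 5 and 4 libraries from the same experiments, and against the mean of the other 4 substrates. No gene passed the test of the difference to uncoated plastic (0.0% of 14701 in limma, with 106 at an unadjusted p under 0.05 and a lowest adjusted p of 0.9999), nor with the block (606 unadjusted) or with edgeR and the block (627 unadjusted). Against the mean of the other 4 substrates 0 passed and 53 had an unadjusted p under 0.05, or 368 in edgeR with the block. A p that misses the threshold does not show that the substrates act alike: the difference in T cell effect was 0.22 ± 1.66 (SE) for Itga4, 0.10 ± 1.18 for Gbp4 and −0.13 ± 0.18 for Cyp51.

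Within experiments, the T cell identity level changed by 3.3, 1.05, 4.84 and 1.12 on fibronectin and by 2.79, 1.07, 4.88 and 0.62 on uncoated plastic in experiments 1, 2, 4 and 5. Fibronectin was thus 0.53 and 0.50 above uncoated plastic in experiments 1 and 5, and −0.01 and −0.04 from it in experiments 2 and 4, with a mean difference of 0.24 ± 0.31 (SD, n = 4). The interferon gamma response level differed between the substrates by 0.04, −0.09, 0.32 and 0.27 in the same experiments. All 25 identity genes were higher in 4 of 4 pairs on uncoated plastic too, where 15.0% of all tested genes were, and so were 14 of 22 interferon gamma response genes. Of the cholesterol genes, 12 of 22 were lower in 4 of 4 pairs on uncoated plastic, where 17.1% of all tested genes were. Cyp51 was lower there in 3 of 4 pairs, by −0.26, −0.32 and −0.11 in experiments 1, 4 and 5, and differed by 0.02 in experiment 2.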

How the data were processed

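RNA of 40 libraries was read as single ends of 75 bases, and 9 of them are used here. Per the submitters' processing notes the tools were STAR 2.6, featureCounts and edgeR 3.31.7 with the build mm10 (GRCm38). The annotation and options are not given in the sources used here. The deposited values are a signal per gene: the authors scaled the counts of each library to its size. Undoing the scaling left a whole number of reads for 100% of the cells (tolerance 0.01).

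Of 21347 genes, 14701 reached 1 per M in at least 3 libraries. Ldha, with a cell that is no number, was left out, and 19 symbols had become dates. R 4.3.3 was used, with limma 3.58.1 on log2(value + 1) and edgeR 4.0.16 (quasi-likelihood) on the recovered counts, with Benjamini-Hochberg adjustment at 0.05. Both were run on simulated reads in which well-expressed genes were changed by a fixed factor, the same in every experiment. That run does not cover genes near 0 in 4T1 alone, nor differences that vary between experiments, so it gives no error rate for the calls reported here. The count test on the fibronectin libraries takes the block from the labels, where the number marks the experiment. Same-numbered residuals from the group means correlated at 0.392, 0.508, 0.222 and 0.452, and the 16 pairs of different experiments at a median of −0.184 (−0.55 to 0.478). Such residuals sum to 0 within a group, which pushes the pairs of different experiments below 0. The 2 ranges also overlap, so these values are no test of the block. Replicates are separate experiments. No 2 libraries of a group were copies (chi-square per degree of freedom 7.87 to 92.1 in 16 pairs).

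Members and the 38 gene lists were chosen with earlier results of these data known. Genes named are up to 10 higher and 10 lower that pass a test with 1 sign in the 4 pairs, overall and among those at 10 per M or more in 4T1 alone, then list members with the largest differences or best known, and 8 set genes. Genes chosen after their values were seen are Krt8, Cd3e, Cd5, Lck, Skap1, Txk, Tcf7, Gzmb, Cd69, Hba-a1, Hbb-bs, Fosb, Itgae, Itgav, Ifngr2, Mvk, Krt17, Fas, Cxcl1, Cxcl10, Batf, Prf1 and Tnf. Positions are from GENCODE M21. Some list members are not reported here by name.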

Additional observations from a re-analysis of the deposited data

Results flagged for a closer look

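The gap between the extreme library and its neighbour was compared with the group's range. This was done for each list level, and for 52 of the genes named where a group reached 1 per M. Of 138 groups examined 12 stood out, where chance gives about 1 in 20. Of these 12, 10 were the co-culture of experiment 4. It was the highest for Gbp4 (62.5 per M, the others 6.24 to 7.72), Tap2 (50.3 per M, the others 27.6 to 28.4) and Cd274 (11.8 per M, the others 2.23 to 2.51). It was the lowest for Itgb1 (1090 per M, the others 1223 to 1249). Among list levels (mean log2), it was the highest for the interferon gamma response (4.91), the interferon gamma pathway (5.91), MHC class I presentation (6.96), checkpoint ligands (4.79) and red cell and platelet markers (1.93, the others 0.119 to 0.306). It was the lowest for the cell cycle list (7.34, the others 7.49 to 7.50). In experiment 2, the co-culture had the highest level of immediate early genes (6.85, the others 4.85 to 5.12), and the library of 4T1 alone had the highest level of T cell cytokine genes (1.01, the others 0.480 to 0.599), a list in which Tnf was at 1.16 per M there.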

How the results depend on the processing

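The experiment number is the replicate number, and the replicate block left the limma count at 0. Other settings moved it: 84 genes passed with a pseudocount of 0.1, 176 without experiment 4, 393 without experiment 4 and with the replicate block, 111 with edgeR on all libraries, 460 with edgeR and the replicate block, 590 with both and without experiment 4, 255 with edgeR on the fibronectin libraries without a block and 290 with it. Leaving out single fibronectin libraries left it at 0. Alternatives to the count test were chosen after seeing the data: 27 passed without experiment 1, 176 without experiment 4, 440 with scaling on carcinoma epithelial genes, 473 with no filter, 170 with a stricter filter and 460 with all 40 libraries. Without experiment 4, with 1 pair fewer to agree, 2412 genes were higher and 2518 lower in every remaining pair. Both tests of a difference between substrates gave 0 under every alternative run. Direction was followed for 52 of the genes named, not for all of them, and 47 of the 52 kept it in all fits. With single libraries left out Irf1 ranged from −0.17 to 0.25, Fn1 from −0.31 to 0.02 and Itgb3 from −0.01 to 0.34, the reversals falling without co-culture 4 and, for Irf1, also without 4T1 alone 2 (−0.03). Irf1 was −0.04 without experiment 4. Fn1 was 0.08, 0.02, 0.03 and 0.04 in fits without experiment 4, and 0.03 and 0.01 with epithelial scaling, under which Itga5 was 0.03 and 0.02 and Itgb1 0.01 and 0.02. Depth limits genes at under 1 per M in co-cultures of experiments 2 and 5.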
